A study of Mus musculus with 6 samples.

Results

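The AP-1 genes *Fos*, *Fosb*, *Fosl1*, *Fosl2*, *Jun*, *Junb*, *Jund* and *Atf3* were examined in undifferentiated spermatogonia, the testis cells that include the stem cells of sperm production. They are 8 of the 53657 gene names counted, and were taken by name from every library. All 8 passed the filter on low counts that left 19656 genes for testing. RNA was sequenced from 6 adult mice, 3 WT and 3 MUT, with each mouse giving 1 library. WT mice carried *Gfra1-creERT2* and *tdTom fl/-* and were littermate controls that lacked the FR-Hras allele. MUT mice carried *Gfra1-creERT2*, *tdTom fl/-* and one *FR-Hras G12V fl/-* allele, a flox-and-replace construct in which recombination leaves a heterozygous G12V form of *Hras*, a constantly active Ras protein, under its own promoter. All mice had a mixed genetic background and received tamoxifen, and their cells were isolated 3 months later. Cre was driven by the *Gfra1* promoter, so that tdTomato and the mutation were induced in undifferentiated spermatogonia and passed on to the cells they produce. Testes were dissociated with enzymes, and cells were sorted as tdTomato+ and bright for MCAM, a surface protein that undifferentiated spermatogonia share with some somatic cells of the testis.

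AP-1 is a family of leucine zipper transcription factors that bind DNA as pairs. A Jun protein can pair with another Jun protein or with a Fos protein, whereas Fos proteins need a Jun partner, and Atf3 pairs mainly with Jun proteins and other ATF proteins. Many of these genes are immediate early genes: growth factors acting through Ras and the ERK kinases, and stress acting through the JNK and p38 kinases, start their transcription within minutes from proteins already in the cell. Enzymatic dissociation of a tissue is also known to induce them, and every mouse here went through it. The comparison of MUT with WT therefore addressed whether the level of a classical Ras-responsive family differed between spermatogonia with and without the active Ras protein.

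Promoter sequence was examined because AP-1 and ATF proteins are known to bind some of their own genes. RefSeq promoters in the GRCm38.p6 build, from 250 bases before to 50 bases after the start, were available for 7 of the 8 genes, *Fosl1* being the exception. The letters TGACG or their reverse complement CGTCA, which form one side of a cAMP response element, were present in 4 of these 7 promoters (*Fos*, *Fosb*, *Junb* and *Atf3*) and in 20.8% of 32851 promoters of the same length. The letters TGACNTCA, on either strand, were present in *Jun* alone and in 8.83% of all promoters; where N is G this motif contains TGACG. The 5 stretches that held these letters follow, 5′ to 3′ on the strand of the gene, with the match in capitals.
Fos, chr12:85473797-85473855, plus strand: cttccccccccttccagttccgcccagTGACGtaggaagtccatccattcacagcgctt
Fosb, chr7:19310074-19310132, minus strand: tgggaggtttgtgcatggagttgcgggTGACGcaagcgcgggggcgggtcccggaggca
Jun, chr4:95052233-95052294, minus strand: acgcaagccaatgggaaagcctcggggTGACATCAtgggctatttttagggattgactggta
Junb, chr8:84978823-84978881, minus strand: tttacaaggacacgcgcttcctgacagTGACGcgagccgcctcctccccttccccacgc
Atf3, chr1:191183309-191183367, minus strand: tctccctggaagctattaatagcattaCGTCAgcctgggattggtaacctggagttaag

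Counted from the RefSeq start, the printed match began at base -66 in *Fos*, -60 in *Fosb*, -45 in *Jun*, -106 in *Junb* and -7 in *Atf3*. *Fos* held a second TGACG at -129. The TATA box letters TATAAA stood at -33 in *Fos* and at 1 in *Junb*, and in 13.6% of all promoters. The full AP-1 motif TGANTCA was in none of the 7 promoters and in 7.81% of all promoters, the full cAMP response element TGACGTCA in none and in 1.79%, and the CArG box, the motif of serum response factor, in none and in 1.63%. The serum response element of *Fos* is known to lie further upstream than these windows reach. A match is only a string of letters, and no binding was measured here. The RefSeq start of *Jund* lies upstream of the first base that was counted for this gene, and its promoter and that of *Fosl2* held none of the motifs searched. The window of *Atf3*, 191183284 to 191183583 on the minus strand, lies inside the counted gene, whose first base is 191218039. That of *Fosl2*, from 32136222 on the plus strand, also lies inside its counted gene, which begins at 32135801. Which start was used in these samples was not determined.

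The 6 libraries had between 22729292 and 23550433 counts, and 3 counts, the most that a count of 0 allows with 95% confidence, corresponded to between 0.127 and 0.132 CPM (counts scaled to a common library size, here with TMM factors). Germ cell markers were present, as the 10 markers of undifferentiated spermatogonia summed to between 2081 and 2702 CPM. Transcripts of other cells were also present, with summed levels of 582 to 1119 CPM for 6 macrophage markers, 601 to 1476 CPM for 6 spermatid markers, 356 to 496 CPM for 6 spermatocyte markers and 686 to 929 CPM for 6 markers of differentiating spermatogonia. The markers of Sertoli cells (17.3 to 27.3 CPM), peritubular myoid cells (14.2 to 20.1 CPM) and endothelial cells (61.4 to 74.1 CPM) were low. Those of Leydig cells were at 67.3 CPM in MUT replicate 3 and between 12.9 and 21.1 CPM in the other libraries, and those of B and plasma cells ranged from 5.98 to 75.2 CPM. In bulk samples such as these, fewer cells of a type and less RNA per cell cannot be told apart. WT replicate 3 stood apart from its group, with a chi-square per degree of freedom of 24.5 and 18.2 against the other WT libraries, which differed from each other by 5.16. The corresponding values within MUT were 4.26 to 9.99. *Hras* counts over the whole gene were 1300, 1407 and 1542 in WT and 1600, 1594 and 1426 in MUT, which does not separate the alleles.

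AP-1 mRNA was abundant in the sorted samples, and which of their cells it came from was not tested. Together the 8 genes took between 0.120% and 0.174% of all counts. On the scale of CPM per kb of exon, which allows a rough comparison between genes, *Fos* was the highest, with 181 ± 26.2 CPM per kb (SD, n = 6 libraries), and ranked 106 among the 19656 genes tested. It was followed by *Junb* with 103 ± 15.1 CPM per kb (rank 274), *Jun* with 70.3 ± 9.02 CPM per kb (rank 511) and *Jund* with 55.2 ± 6.55 CPM per kb (rank 785). *Fosb* had 43.1 ± 5.91 CPM per kb (rank 1171) and *Atf3* 26.2 ± 5.72 CPM per kb (rank 2363). The Fos-related genes *Fosl2* and *Fosl1* were far lower, with 7.75 ± 0.839 CPM per kb (rank 7101) and 4.33 ± 0.508 CPM per kb (rank 9393). Along this order the ranges over the 6 libraries overlapped between *Jun* and *Jund*, between *Jund* and *Fosb* and between *Fosb* and *Atf3*, and were separate between the other neighbours. The lengths join all annotated exons of a gene, and were longest for *Fosl2* (9680 bases) and *Fosb* (6243 bases). Which transcripts were expressed was not determined, so a gene whose expressed transcript is shorter than this length would be placed too low.

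The place of *Jund* in this order depended on how its length was counted. Its single exon, on chromosome 8 from 70698949 to 70700616 on the plus strand of GRCm38.p6, shares 877 of 1668 bases (52.6%) with RP23-410L16.3, a gene annotated on the opposite strand. Fragments were counted without regard to strand and those overlapping more than 1 gene were dropped, so that only 791 bases could collect counts, and RP23-410L16.3 itself had 0 counts in every library. Per kb of countable exon *Jund* was at 116 ± 13.8 CPM per kb, second after *Fos* and overlapping with *Junb* at 112 ± 16.3 CPM per kb. The same overlap was smaller for *Jun*, which shares 232 bases (7.28%) with *Junos* (57 to 80 counts), and for *Junb*, which shares 173 bases (7.52%) with *Prdx2* (1105 to 1357 counts). The other 5 members share no exon base with another counted gene.

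No AP-1 gene passed the test between MUT and WT. By edgeR's quasi-likelihood test, with p adjusted by the Benjamini-Hochberg method and an FDR of 0.1, 0 of the 8 members were called, against 0.0102% of all genes tested (2 of 19656). At an unadjusted p under 0.05 there was 1 member of 8, *Jund*, against 2.78% of all genes (547), of which 1.44% were lower and 1.34% higher in MUT. The log2 fold change of MUT over WT was below 0 for 7 of the 8 members, with a median of -0.14, against 48.2% of all genes and a median of 0.0066. The 95% confidence intervals for the fold, MUT over WT, lay between 0.629, the lower end for *Atf3*, and 1.41, the upper end for *Fosl1*. The levels of each mouse are given in CPM, a scale on which each gene can be compared between mice but not with other genes.

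**Figure D1:**
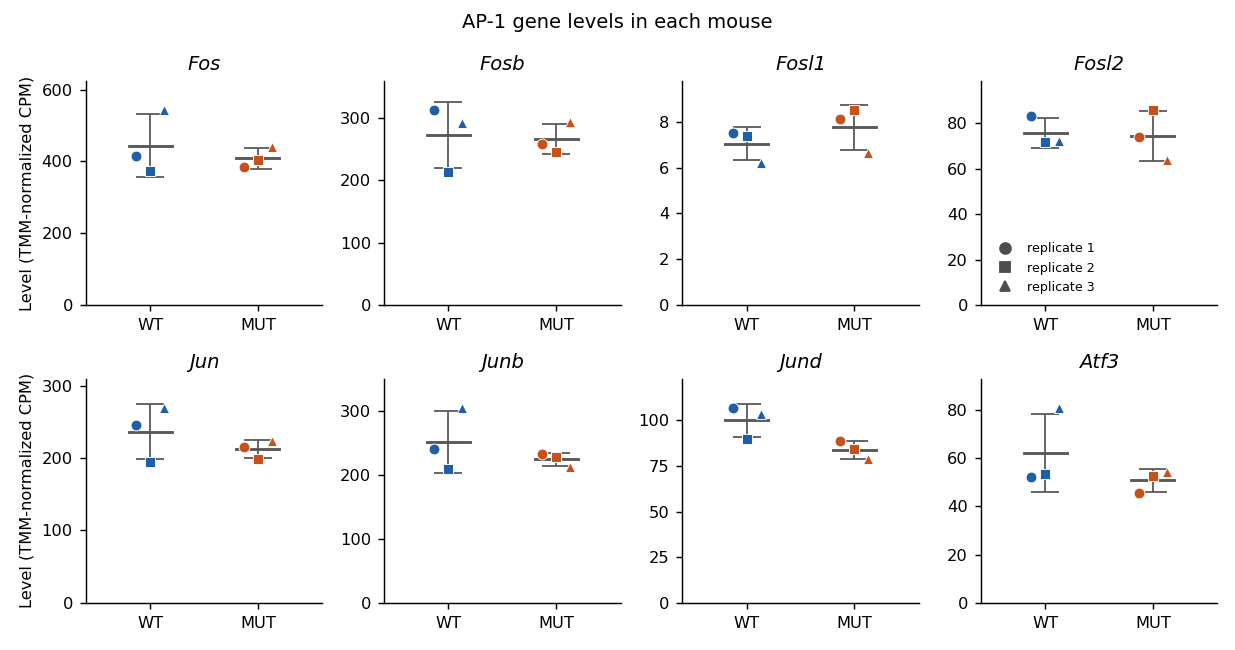
Levels of the 8 AP-1 genes in TMM-normalized CPM (linear axes from 0, a different scale for each gene) in WT and MUT, with a symbol for each mouse, its replicate number given by the shape, and a bar with whiskers for the mean ± SD of 3 mice. Only for *Jund* do all 3 MUT mice lie below all 3 WT mice, and WT replicate 3 is the highest point for *Fos*, *Jun*, *Junb* and *Atf3*.

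The Fos proteins supply the partner that Jun proteins bind most strongly. *Fos*, the classical serum-response gene (chromosome 12, 85473890 to 85477273, plus strand, 4 exon blocks), was at 415, 374 and 542 CPM in WT replicates 1, 2 and 3 and at 383, 404 and 441 CPM in MUT. WT replicate 3 was the highest mouse and WT replicate 2 the lowest, so that the groups overlapped, with means of 444 ± 87.8 and 409 ± 29.3 CPM (SD, n = 3). The log2 fold change was -0.12 (95% confidence interval -0.43 to 0.19), with an adjusted p of 0.998 by edgeR's quasi-likelihood test and p = 0.7 by an exact two-sided permutation test, whose smallest possible p with 3 against 3 mice is 0.1. Without WT replicate 3 it was 0.053, on the other side of 0, and without WT replicate 2 it was -0.24. *Fosb*, a Fos family member best known for accumulating with repeated stimulation of neurons (chromosome 7, 19302696 to 19310051, minus strand), was at 312, 212 and 291 CPM in WT and at 258, 246 and 294 CPM in MUT. The lowest and the highest mouse were both WT, and the log2 fold change was -0.032 (95% confidence interval -0.35 to 0.29).

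*Fosl1* and *Fosl2* encode Fra-1 and Fra-2, Fos relatives that lack the strong activation domain of Fos. *Fosl1*, a gene often raised where Ras is active (chromosome 19, 5447703 to 5455945, plus strand), had only 147 to 196 counts per library, or 7.52, 7.39 and 6.21 CPM in WT and 8.13, 8.50 and 6.63 CPM in MUT. MUT replicate 3 was below the WT mice other than WT replicate 3, so the groups overlapped (exact permutation p = 0.4). It was the member with a log2 fold change above 0, at 0.14 (95% confidence interval -0.22 to 0.50), and by this interval a rise of more than 1.41-fold in MUT would lie outside it. *Fosl2* (chromosome 5, 32135801 to 32157842, plus strand) was at 83.3, 71.7 and 72.1 CPM in WT and at 73.8, 85.6 and 63.7 CPM in MUT, where both extremes were found. Its log2 fold change was -0.025 (95% confidence interval -0.28 to 0.23). Without WT replicate 3 the log2 fold change was 0.021 for *Fosb*, 0.056 for *Fosl1* and -0.059 for *Fosl2*.

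Jun proteins form the other side of the AP-1 pair. *Jun*, the target of the JNK kinases (chromosome 4, 95049034 to 95052222, minus strand, 1 exon), was at 246, 194 and 269 CPM in WT and at 215, 198 and 223 CPM in MUT, all MUT mice lying within the WT range. *Junb*, which opposes Jun at many promoters (chromosome 8, 84974484 to 84978718, minus strand), was at 240.4, 209 and 305 CPM in WT and at 233, 228 and 213 CPM in MUT, again within the WT range. The log2 fold changes were -0.16 for *Jun* (95% confidence interval -0.43 to 0.11) and -0.16 for *Junb* (95% confidence interval -0.46 to 0.13). Single WT mice moved both values: without WT replicate 3 they were -0.053 for *Jun* and -0.00095 for *Junb*, and without WT replicate 2, the lowest mouse for both genes, -0.29 (unadjusted p of 0.0143 by edgeR) and -0.29 (unadjusted p of 0.0378), with adjusted p = 0.998 for each.

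*Jund*, the Jun gene that is usually expressed steadily and restrains proliferation in many cells, was the member whose groups did not overlap. It was at 107, 89.8 and 103 CPM in WT and at 88.6, 84.5 and 78.8 CPM in MUT. The lowest WT mouse and the highest MUT mouse were close, and the means were 100 ± 9.02 and 84.0 ± 4.93 CPM (SD, n = 3). Of all genes tested 3.00% were likewise lower in every MUT mouse than in every WT mouse, while no member was higher in every MUT mouse, as 4.69% of all genes were. The exact permutation p of *Jund* was 0.1, the smallest possible. The log2 fold change of -0.25 (standard error 0.0845, 95% confidence interval -0.45 to -0.059, a fold of 0.840) had an unadjusted p of 0.0164 and an adjusted p of 0.998 by edgeR's quasi-likelihood test, so it was not called. With each mouse left out in turn it stayed between -0.34 and -0.21, and over the 14 alternative fits its adjusted p was 0.471 or more. These counts come from the 791 bases of the exon that no other gene shares.

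*Atf3*, a stress-response gene of the ATF family that often acts as a repressor (chromosome 1, 191170296 to 191218039, minus strand), had the largest negative log2 fold change of the 8, -0.29, with the widest interval (-0.67 to 0.086). It was at 52.2, 53.2 and 80.6 CPM in WT and at 45.3, 52.5 and 54.2 CPM in MUT. WT replicate 3 was far above the other 5 mice, which lay between 45.3 and 54.2 CPM, and the groups overlapped (exact permutation p = 0.5). Without WT replicate 3 the log2 fold change was -0.057, without WT replicate 2 it was -0.40 and without WT replicate 1 -0.41.

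**Figure D2:**
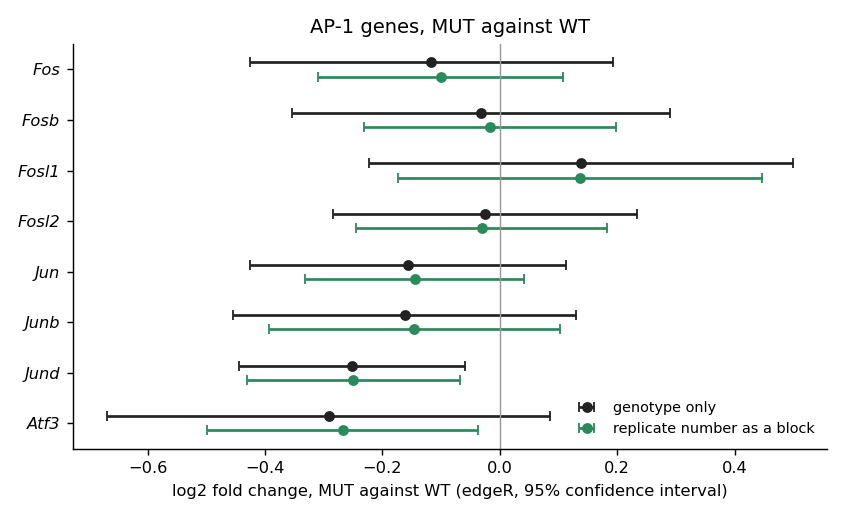
Log2 fold change of MUT over WT for each AP-1 gene from edgeR, with its 95% confidence interval, fitted with genotype only (black) and with the replicate number as a block (green); the vertical line marks no difference. The interval of *Jund* lies below 0 in both fits and that of *Atf3* in the blocked fit alone, before any adjustment for the number of genes tested.

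The replicate numbers of the labels were also used as pairs. *Jund* was lower in MUT than in the WT mouse of the same number in all 3 pairs, with log2 differences of -0.27, -0.088 and -0.39, and *Atf3* as well, with -0.20, -0.019 and -0.57. Of all genes 13% were lower in all 3 pairs. *Fosl1* was higher in all 3 pairs, as were 14.1% of all genes, and the other 5 members went both ways. With the replicate number as a block, 0 members were called by edgeR's quasi-likelihood test, against 0.0661% of all genes (13). At an unadjusted p under 0.05 there were then 2 members of 8, *Jund* (unadjusted p of 0.0114, adjusted p = 0.471) and *Atf3* (unadjusted p of 0.0272, adjusted p = 0.643), against 6.60% of all genes.

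The WT mice differed among themselves by more than the group means did. The summed level of the 8 genes was 1463, 1212 and 1670 CPM in WT and 1305, 1307 and 1374 CPM in MUT, so that the MUT mice were close together and inside the WT range. WT replicate 3 was the highest library for 4 of the 8 members (*Fos*, *Jun*, *Junb* and *Atf3*), for 19 of 31 other immediate early genes tested (61.3%) and for 26.7% of all genes. Without it the median log2 fold change of the 8 members was -0.027, in place of -0.14, and 5 of the 8 were below 0. The blocked fit, which keeps this library beside MUT replicate 3, gave log2 fold changes of -0.10 for *Fos*, -0.15 for *Jun*, -0.15 for *Junb* and -0.27 for *Atf3*. The spread between mice, given by edgeR as a biological coefficient of variation, was 0.147 for *Atf3*, 0.121 for *Fos*, 0.127 for *Fosb* and 0.117 for *Junb*, against 0.108 for *Jun*, 0.106 for *Fosl2* and 0.0834 for *Jund*. The median of all genes was 0.142, but that includes many low genes. For its level *Atf3* was the most variable member in the fit on genotype alone, at 1.51 times the trend of genes of the same abundance (percentile 93.4), whereas *Jund* was at 0.914 times and *Fosl1*, with a coefficient of 0.152, at 0.788 times the trend. With the replicate number as a block this order changed: *Junb* was then the highest at 1.24 times the trend, above *Atf3*, whose coefficient was then 0.0959.

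Markers of some other cell types, but not of all, were highest in WT replicate 3, against 26.7% of all genes. Of the tested markers this held for 4 of 6 for B and plasma cells and 2 of 6 for peritubular myoid cells. For Sertoli cells it was 1 of 4, for endothelial cells 0 of 6 and for Leydig cells 0 of 5. All 6 of 6 macrophage markers (*Cd68*, *Csf1r*, *Adgre1*, *Cd14*, *Lyz2* and *C1qa*) were highest in WT replicate 3, and none was at 0 in any library. Their sum was 754, 659 and 1119 CPM in WT and 582, 706 and 725 CPM in MUT, and their median log2 fold change was -0.33, or -0.12 without WT replicate 3. At an unadjusted p under 0.05 by edgeR 0 of the 6 were lower in MUT. With the replicate number as a block this was 4 of the 6, against 926 of 19656 genes, and 0 were called. Of the 6 spermatid markers 5 were highest in the same library, with sums of 1165, 869 and 1476 CPM in WT and 601, 629 and 1147 CPM in MUT, and so were 5 of the 6 spermatocyte markers. All 6 spermatid markers had a log2 fold change below 0, with a median of -0.55. Without WT replicate 3 it was -0.35, with 4 of the 6 below 0. At an unadjusted p under 0.05 by edgeR 1 of the 6 was lower in MUT, against 1.44% of all genes. With the replicate block this was 4 of the 6, and 1 was called, against 13 of 19656 genes. In contrast, the sum of the 10 markers of undifferentiated spermatogonia was lowest in WT replicate 3, at 2081 CPM. Their median log2 fold change was -0.10, or -0.12 without that library, and 0 were called. At an unadjusted p under 0.05 by edgeR 1 was higher and 0 were lower in MUT. Without WT replicate 3 this was 1 higher and 3 lower, against 354 higher and 375 lower of 20086 genes. The 6 markers of differentiating spermatogonia did not follow WT replicate 3, as 0 of them were highest there. All 6 had a log2 fold change above 0, with a median of 0.21 (0.21 without WT replicate 3). By edgeR 3 had an unadjusted p under 0.05, all higher in MUT, against 1.34% of all genes, and 0 were called. Without WT replicate 3 this was 1 of the 6, against 354 of 20086 genes higher in MUT. The groups did not overlap for 3 of the 6 (50%), higher in MUT, against 4.69% of all genes. The sums of these markers were 714 ± 28.1 CPM in WT and 835 ± 82.1 CPM in MUT (SD, n = 3), also without overlap. Macrophages are known to express AP-1 genes. They are somatic cells, in which *Gfra1-creERT2* is not described to switch on tdTomato, but their markers were present in every sorted library. The part of these cells in the AP-1 levels was not tested.

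**Figure D3:**
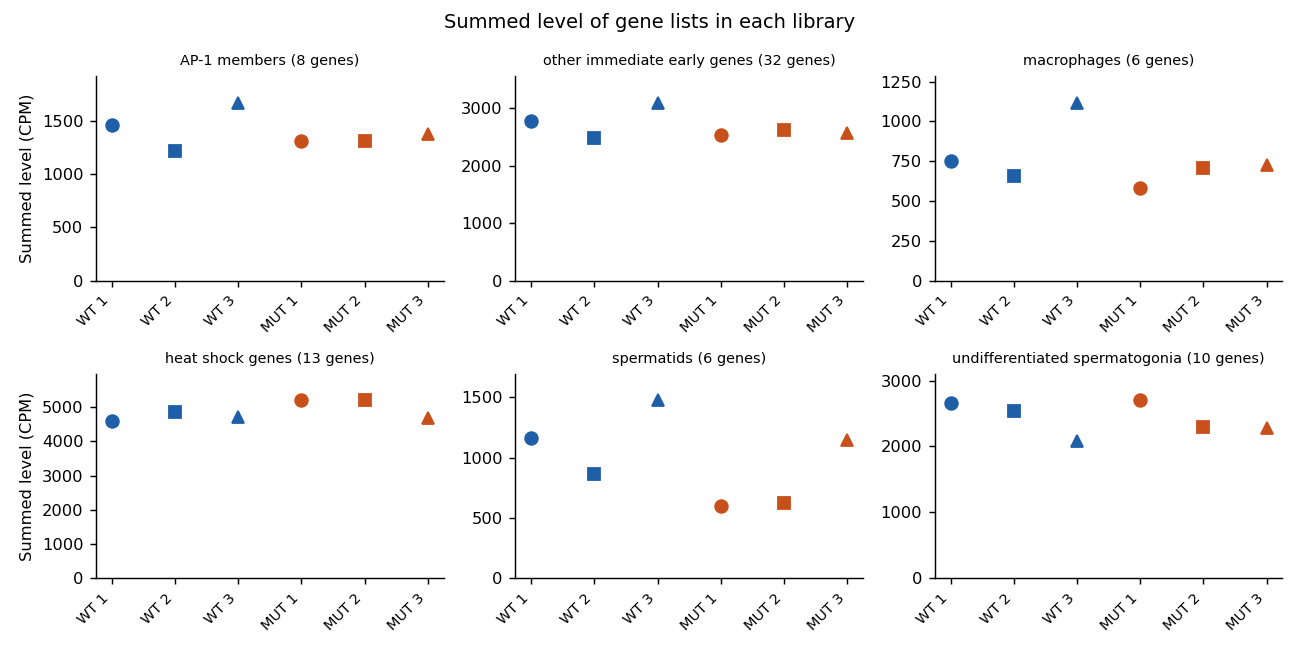
Summed level in CPM (linear axes from 0) of 6 gene lists in each library, blue for WT and orange for MUT, the shape giving the replicate number. WT replicate 3 is the highest library for the AP-1 members (1670 CPM), the other immediate early genes (3094 CPM), the macrophage markers (1119 CPM) and the spermatid markers (1476 CPM), and the lowest for the markers of undifferentiated spermatogonia (2081 CPM).

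The make-up of AP-1 mRNA differed little between the mice. Of the summed CPM per kb, *Fos* made up 36.5 ± 1.75% in WT and 37.3 ± 1.81% in MUT (SD, n = 3), *Junb* 21.1 ± 0.712% and 20.9 ± 1.45%, and *Jun* 14.4 ± 0.669% and 14.2 ± 0.664%. *Jund* made up 11.7 ± 1.28% and 10.8 ± 0.872%, *Fosb* 8.45 ± 1.18% and 9.11 ± 0.639%, and *Atf3* 5.54 ± 0.727% and 5.04 ± 0.396%. *Fosl2* and *Fosl1* stayed below 2% in every mouse. For every member the shares of the groups overlapped. The 4 Fos genes together held 47.3 ± 0.380% in WT and 49.0 ± 1.96% in MUT, and the 3 Jun genes 47.2 ± 1.06% and 46.0 ± 2.28%. This scale places *Jund*, and with it the Jun genes, too low, since 877 of its 1668 bases could not collect counts. With shared exon bases left out of the lengths, a choice made after seeing the data, *Jund* rose to 21.3 ± 2.09% in WT and 19.8 ± 1.42% in MUT, and the 3 Jun genes to 54.4 ± 1.45% and 52.9 ± 2.43%. The 4 Fos genes then held less than the Jun genes, with 40.8 ± 0.825% in WT and 42.7 ± 2.11% in MUT.

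**Figure D4:**
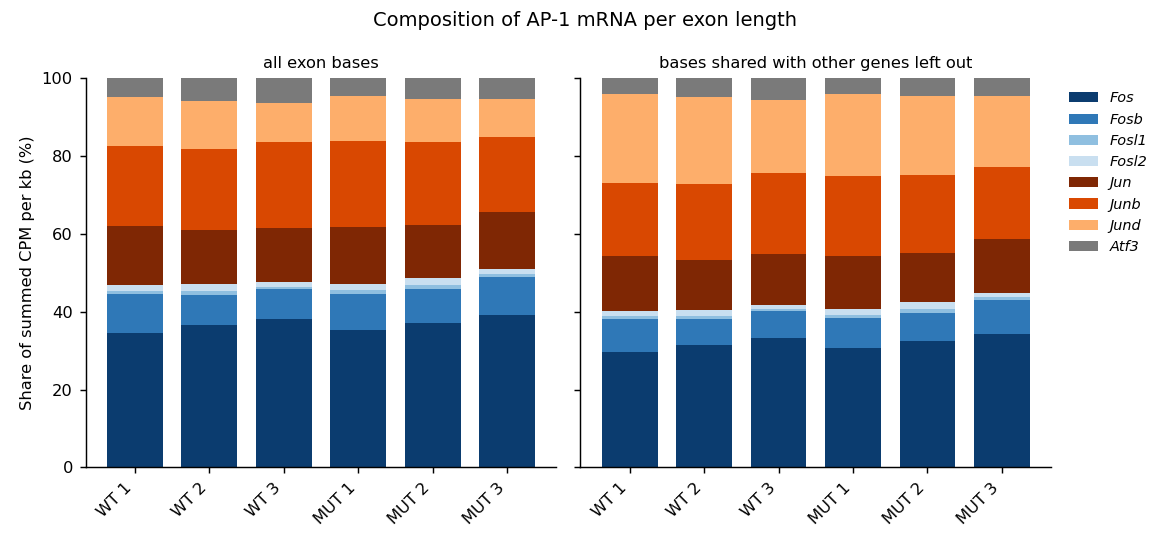
Share of each AP-1 gene in the summed CPM per kb of the 8 genes (percent), a bar for each library, with Fos genes in blue, Jun genes in orange and *Atf3* in grey. The left panel uses the whole exon length and the right panel leaves out bases shared with another gene, which lifts *Jund* from about 11.3% to 20.6% on average, while the bars of WT and MUT look alike in both.

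The other genes of the AP-1 system were examined as lists. Of 21 further leucine zipper genes that can pair with AP-1 proteins (ATF, BATF, MAF, CREB and BACH genes and *Jdp2*), 0 were called and the median log2 fold change was -0.0048. The groups did not overlap for 1 gene higher and 1 gene lower in MUT, 4.76% each, against 4.69% and 3.00% of all genes. Among them *Jdp2*, a repressor that pairs with Jun proteins, was lower in every MUT mouse, with 11.4, 11.1 and 9.30 CPM in WT against 9.09, 8.37 and 7.18 CPM in MUT. Its log2 fold change was -0.36, with an unadjusted p of 0.0384 and an adjusted p of 0.998 by edgeR's quasi-likelihood test. *Atf5*, an ATF gene of the stress response, was slightly higher in every MUT mouse (14.8 ± 0.178 CPM in WT, 15.3 ± 0.372 CPM in MUT, n = 3), with a log2 fold change of 0.048.

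Of 23 kinases and regulators that act on AP-1 genes or proteins (JNK, p38 and ERK kinases, serum response factor with its partners, and ubiquitin ligases), 0 were called and the median log2 fold change was 0.034. The groups did not overlap for 3 of them, 1 higher and 2 lower in MUT (4.35% and 8.70%), against 4.69% higher and 3.00% lower among all genes. *Elk1*, which carries the ERK signal to the serum response element of *Fos*, was at 40.6, 41.6 and 33.5 CPM in WT and at 47.6, 41.8 and 44.7 CPM in MUT. Its log2 fold change was 0.21 (unadjusted p = 0.0662 by edgeR's quasi-likelihood test), and 0.12 without WT replicate 3. *Mapk9*, the kinase JNK2, and *Map2k7*, a kinase that activates JNK, were lower in every MUT mouse by small amounts, with log2 fold changes of -0.072 and -0.048.

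The other immediate early genes had a median close to that of the AP-1 genes. Of 32 listed genes 31 were tested, 0 were called, and 26 had a log2 fold change below 0, with a median of -0.16. Without WT replicate 3 the median was -0.012 and 17 of the 31 were below 0. An unadjusted p under 0.05 by edgeR was found for 3 of the 31, *Egr2*, *Ier5* and *Nfkbiz*, all lower in MUT, as were 1.44% of all genes. The groups of *Egr2* and *Ier5* did not overlap, 6.45% of the list against 3.00% of all genes. *Egr2*, a growth factor-induced zinc finger factor, was at 114, 115 and 105 CPM in WT and at 101, 94.1 and 77.1 CPM in MUT. Its log2 fold change was -0.30 (unadjusted p of 0.0173, adjusted p = 0.998 by edgeR's quasi-likelihood test), and -0.34 without WT replicate 3. *Ier5*, an immediate early gene linked to the heat shock response, was at 52.3, 51.2 and 61.5 CPM in WT and at 45.5, 47.1 and 43.3 CPM in MUT, with a log2 fold change of -0.28, or -0.19 without WT replicate 3.

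*Egr1*, the ERK-induced zinc finger factor that is often used as a readout of Ras signalling, was at 393 ± 54.8 CPM in WT and 390.1 ± 30.8 CPM in MUT (n = 3), a log2 fold change of -0.0096. *Ier2*, named for its early induction (-0.19), *Dusp1*, which inactivates MAP kinases (-0.16), *Zfp36*, which destabilises the mRNA of immediate early genes (-0.20), and *Btg2*, an antiproliferative gene (-0.033), had overlapping groups, and each was highest in WT replicate 3. *Zfp36* was at 393, 371 and 539.8 CPM in WT and at 339.8, 385 and 412 CPM in MUT. Without WT replicate 3 its log2 fold change was -0.012, that of *Dusp1* was 0.039, that of *Ier2* was -0.049 and that of *Btg2* was 0.13, with an unadjusted p of 0.0462 and an adjusted p of 0.999 by edgeR's quasi-likelihood test.

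The heat shock genes, another set that dissociation is known to induce, were not highest in WT replicate 3 as a sum. Of 13 genes 0 were called, the median log2 fold change was 0.058, and their sum was 4578, 4848 and 4712 CPM in WT and 5196, 5193 and 4692 CPM in MUT. Most of that sum came from *Hsp90ab1* (mean 2096 CPM in WT, 2303 CPM in MUT), *Hspa8* (914 and 970 CPM) and *Hsp90aa1* (859 and 898 CPM). It therefore says little about the less abundant genes of the list. Gene by gene, 5 of the 13 (38.5%) were highest in that library, against 26.7% of all genes, and *Hspa1a* was one of them with 13.3 CPM, against 8.08 to 11.1 CPM in the other mice. The inducible chaperone genes *Hspa1a* (10.2 ± 2.73 CPM in WT, 9.47 ± 1.41 CPM in MUT) and *Hspa1b* (12.5 ± 2.18 CPM in WT, 13.2 ± 2.03 CPM in MUT) were low, with log2 fold changes of -0.12 and 0.076. These 2 genes are near-identical copies, so fragments that aligned to both were not counted.

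Genes with described AP-1 sites served as a view of the targets, although other factors also drive them. Of 21 listed genes 18 were tested and 0 were called, and 14 had a log2 fold change below 0, with a median of -0.13, or 0.024 without WT replicate 3. Their summed level was 731, 720 and 743 CPM in WT and 701, 674 and 651 CPM in MUT, with no overlap. Without *Hmox1* and *Dusp6*, a choice made after seeing the data, the sums of the other 19 listed genes overlapped, with 430.4, 428 and 441 CPM in WT and 433, 440.5 and 408 CPM in MUT. *Hmox1*, the heme-degrading enzyme, was at 164, 165 and 175 CPM in WT and 141, 134 and 140 CPM in MUT. It was the gene of this list whose groups did not overlap, 5.56% against 3.00% of all genes. Its log2 fold change of -0.28 (standard error 0.0631, unadjusted p of 0.0020, adjusted p = 0.998 by edgeR's quasi-likelihood test) was -0.25 without WT replicate 3. *Dusp6*, the phosphatase that ERK induces against itself, had an unadjusted p of 0.0340, with 131 ± 5.13 CPM in WT and 110.0 ± 15.1 CPM in MUT (n = 3) and overlapping groups. *Hmox1* and *Dusp6* were the 2 of 18 tested genes lower in MUT at an unadjusted p under 0.05 by edgeR, against 1.44% of all genes. In this list 0 were higher, against 1.34% of all genes.

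**Figure D5:**
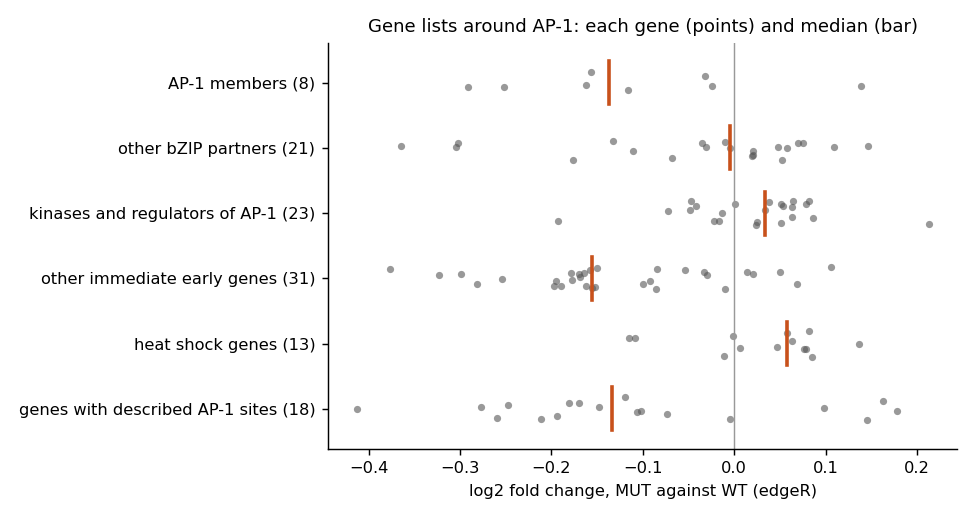
Log2 fold change of MUT over WT by edgeR for every tested gene of the AP-1 members and of the 5 lists around them (grey points, the number of genes in brackets), with the median of each list as an orange bar; vertical scatter within a list carries no value. The medians of the AP-1 members (-0.14), the other immediate early genes (-0.16) and the genes with AP-1 sites (-0.13) lie below 0, that of the other leucine zipper partners near it (-0.0048), those of the kinases and regulators (0.034) and heat shock genes (0.058) above it, and without WT replicate 3 the first 3 medians are -0.027, -0.012 and 0.024.

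The genes most like AP-1 in their pattern over the 6 mice were sought by the root mean square difference between log2 levels, each centred on its own mean. The reference was the mean profile of the 7 members with at least 10 CPM, which was 0.26 above its mean in WT replicate 3, 0.094 above it in WT replicate 1, 0.15 below it in WT replicate 2 and 0.057 to 0.087 below it in the MUT mice. Of 10576 genes, the closest were *Fam105a* (difference 0.032), *Neu1* (0.032), *Rnf138* (0.037), *Idh2* (0.039) and *Cpeb3* (0.040), against a median of 0.179 over all genes and 0.136 for a flat profile. The nearest immediate early genes were *Mcl1* at rank 13 (0.049), *Ier2* at rank 30 (0.061), *Klf6* at rank 113 (0.081) and *Nr4a1* at rank 210 (0.090), whereas *Egr1* stood at rank 3375 and *Egr2* at rank 7512. *Ier5*, *Btg2*, *Rhob*, *Zfp36* and *Klf2* were also nearer than the flat profile (0.0999 to 0.132). All other immediate early genes compared were further than it, such as *Dusp1* (0.151), *Egr1* (0.154) and *Gadd45b* (0.212). So were the members *Fosb* (0.137), *Atf3* (0.165) and *Fosl2* (0.184), although they helped to form the profile. Set against the mean of the other members at 10 CPM or more, *Jun* (0.072), *Junb* (0.083) and *Fos* (0.10) had the smallest differences of the 8, and *Fosl2* (0.21) and *Fosl1* (0.26) the largest. All of these values share the same 6 libraries and their scaling.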

How the data were processed

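RNA from tdTomato+ MCAM-bright cells of 3 WT and 3 MUT mice, 1 mouse a library, was sequenced by the authors from stranded polyA libraries. The deposited values are raw counts of fragments per gene name from featureCounts 1.6.2 on GENCODE M17 (per the file headers) for GRCm38.p6, counted without strand and without multi-mapping or ambiguous fragments. STAR and FastQC are named in the submitters' processing notes. Members and gene lists were chosen with earlier results of these data known.

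In R 4.3.3, edgeR 4.0.16 filtered (filterByExpr), scaled (TMM) and tested 19656 genes by its quasi-likelihood test on genotype alone, with p adjusted by the Benjamini-Hochberg method and an FDR of 0.1, and was tested on simulated counts. Single genes also had an exact permutation test, with 20 assignments of the 6 mice. Alternatives were DESeq2 1.42.0, limma 3.58.1 (voom), DESeq2 size factors, 2 filters on low counts, the replicate number as a block, an FDR of 0.05 and each mouse left out. The numbers in the labels were taken as pairs: over 10583 genes above 10 CPM, the deviations of same-numbered mice from their group means correlated at 0.304, 0.156 and 0.395. Of the differently numbered mice, WT replicate 2 and MUT replicate 1 correlated at 0.326, above 2 of these, so the check does not single out the pairing of replicates 1 and 2. The controls were littermates, but which mice were paired is not given in the sources used here.

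Beside the members, named genes were those with the largest log2 fold change among genes of a list at 1 CPM or more whose groups did not overlap (at most 3 a list), plus *Egr1*, *Ier2*, *Dusp1*, *Zfp36*, *Btg2*, *Hspa1a* and *Hspa1b*, and the 5 genes nearest in pattern. *Nfkbiz*, *Dusp6*, *Mcl1*, *Klf6* and *Nr4a1* were named after their values were seen. Intervals and floors cover counting error and spread between mice only, since PCR duplicates were not separable. CPM per kb uses the exon length in the files. Reads at the *Hras* mutation were not analysed here.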

Additional observations from a re-analysis of the deposited data

How the results depend on the processing

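The number of AP-1 genes called was 0 in the 15 other settings. The number of all genes called, 2 by edgeR's quasi-likelihood test, was 9 with DESeq2, 17 without its Cook's filter, 4 with limma voom, 5 with no filter, 13 with the replicate block in edgeR, 55 with the replicate block in DESeq2, 1 at an FDR of 0.05 and 0 with at least 10 counts in every sample (479 genes at an unadjusted p under 0.05 by edgeR). DESeq2 size factors left it at 2. With each mouse left out it ranged from 0 (without MUT replicate 2, with 292 genes at an unadjusted p under 0.05 by edgeR) to 6 (without MUT replicate 3), and was 1 without MUT replicate 1 and 5 without WT replicate 3. The cause was not tested. The replicate block changed no call on an AP-1 gene.

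The log2 fold change crossed 0 for *Fos* without WT replicate 3 (0.053, range over the mice left out -0.24 to 0.053), for *Fosb* without WT replicate 1 (0.070), WT replicate 3 (0.021) and MUT replicate 2 (0.0086, range -0.19 to 0.070), and for *Fosl2* without WT replicate 1 (0.042) and MUT replicate 3 (0.077, range -0.15 to 0.077). The other members kept their direction in all 14 alternative fits, with adjusted p of 0.471 or more. Leaving shared exon bases out of the lengths, chosen after seeing the data, gave mean shares of 32.0% for *Fos*, 7.62% for *Fosb*, 13.4% for *Jun*, 19.7% for *Junb*, 20.6% for *Jund* and 4.59% for *Atf3*, by the shorter lengths alone. The coefficient of variation of *Atf3* was 0.0959 with the replicate block. Depth was even, and the lowest count of any member in a library was 147, for *Fosl1*.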
